A study of Mus musculus with 29 samples.

Results

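The genes described here make, activate or carry long-chain fatty acids and docosahexaenoic acid (DHA), and were followed in sorted neurons of the mouse retina. They are the elongases Elovl2, Elovl4, Elovl5, Elovl6 and Elovl7, the desaturases Fads1, Fads2 and Fads3, the acyl-CoA synthetase Acsl6 and the lipid transporter Mfsd2a, taken by gene symbol from the table of expressed genes. All 10 were among the 24062 rows of the table, and 9 of them were among the 14024 genes that passed the filter on low values. Mfsd2a did not pass and is described by its reads alone.

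Fatty acids with many double bonds enter the body mainly as short precursors, which are lengthened by elongases and receive further double bonds from desaturases, in alternating steps on the endoplasmic reticulum. DHA is the product of the last of these steps and of a chain shortening in peroxisomes. Photoreceptor outer segments are among the membranes richest in DHA in the body, and they also hold phospholipids with still longer chains that Elovl4 is needed to make. Dominant mutations of ELOVL4 cause a form of macular dystrophy in people.

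Expression was measured by RNA-seq in 15 libraries, 3 from each of 5 sorted populations, and open chromatin by ATAC-seq in 12 libraries, 2 from each of 6. For RNA-seq, all bipolar cells (pan-BC) were taken in a single sort from Otx2-GFP+/- mice at postnatal day 44 to 47. ON bipolar cells (ON-BC, single sort) and OFF bipolar cells (OFF-BC, double sort) came from Otx2-GFP+/-; Grm6-YFP+/+ mice at day 42 to 48, and the labels give this genotype, at day 42 to 46, for each of the bipolar ATAC-seq libraries too. These mice carry GFP at the C-terminal end of 1 copy of the Otx2 gene itself, and photoreceptors of the line are weakly green. YFP is driven by the Grm6 promoter. Rods came from Nrl-eGFP mice, and the cells called blue cones here came from Nrl-eGFP;NrlKO mice, whose photoreceptors lack the rod factor Nrl and are a stand-in for blue cones rather than cones of a normal retina. Green cones, for which only ATAC-seq was analysed here, came from Opn1mw-GFP mice. The photoreceptor libraries, from mice at day 56, belong to a previous study of this laboratory and were processed again, so cell class, study and age cannot be told apart in any comparison of bipolar cells with photoreceptors. The labels do not say that libraries of 1 population came from separate animals, and p-values then measure only the spread between these libraries.

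The libraries held 12329548 to 26266746 counted reads on genes and 4176776 to 12345845 in regions of open chromatin. The sum of 10 bipolar markers was 118816 to 166457.5 normalized counts in the 9 bipolar libraries, 8272 to 9265 in rods and 32867 to 38071 in blue cones. Nrl had 657, 764 and 485.5 normalized counts in the blue cone libraries and 11476, 16599 and 14469 in rods, and counts per gene do not show which part of Nrl the remaining reads come from. A single library stood apart. Opn1sw, the blue cone opsin, had 55813 normalized counts in OFF-BC library 3 and 4477 and 4314 in the other OFF-BC libraries. The sum of 7 cone markers was 92072 there, 24261 and 22006.5 in the other OFF-BC libraries, 4515 to 5140 in ON-BC, 41365.5 to 67307 in pan-BC, 10319 to 10381 in rods and 1467630 to 1681575 in blue cones. The sum of 8 rod markers was 40891 to 49239 in pan-BC, 26928 to 31946 in ON-BC and 8297 to 25167 in OFF-BC, against 1857508 to 2563661 in rods. The marker sums of Muller glia were highest in blue cones (13819 to 17193) and lowest in rods (2110 to 3462), and those of microglia were also highest in blue cones (377 to 821). Not every gene of the Muller glia list kept this order. Aqp4 had 39.8, 92.2 and 84.3 in rods and 28.6, 28.8 and 42.9 in blue cones. Kcnj10 had 11.6, 5.12 and 45.4 in rods and 33.1, 14.4 and 28.9 in blue cones. The sum of 8 amacrine and horizontal cell markers was 2068 to 2427 in rods, 1374 to 1608 in blue cones and 227 to 942 in the bipolar libraries. Of these 8 genes, 7 stayed below 20 in all rod libraries, and 7 in all blue cone libraries. Among them 3 were at 0 in all rod libraries and 2 in all blue cone libraries. The photoreceptor sums therefore do not show the list as a whole. Every value below is from bulk RNA of many cells, in which fewer cells of a type and less RNA per cell cannot be told apart.

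Levels are given as normalized counts, the reads of a gene divided by 1 size factor per library. With limma, populations were compared after adding 1 to each normalized count and taking log2, each gene against a log2 fold change of 1, and a gene was called at an adjusted p below 0.05. Adding 1 shrinks the fold changes of weakly expressed genes.

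Sequences are shown for regions of open chromatin near Elovl2, Elovl4, Elovl5, Elovl7 and Acsl6 whose accessibility is compared further on, and for stretches upstream of Elovl5 and Elovl7. All were chosen after their values were seen. They are from the RefSeq sequence of GRCm38.p6 (mm10 in the files), on the plus strand, and capitals mark TAATCC, read as GGATTA on the other strand, and TAATTA. The first is the motif that CRX and OTX2, homeodomain factors of photoreceptors and bipolar cells, are known to bind, and the second is a palindrome bound by many other homeodomain factors. Both stretches upstream of a gene stop at its first base, and they overlap only in part with the promoter regions whose accessibility is compared.
Elovl5 promoter, chr9:77917115-77917364: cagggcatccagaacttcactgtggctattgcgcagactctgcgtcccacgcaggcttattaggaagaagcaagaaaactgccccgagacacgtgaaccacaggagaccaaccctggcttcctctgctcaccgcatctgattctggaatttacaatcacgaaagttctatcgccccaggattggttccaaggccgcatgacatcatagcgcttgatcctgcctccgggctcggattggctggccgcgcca
Elovl7 promoter, chr13:108214154-108214325: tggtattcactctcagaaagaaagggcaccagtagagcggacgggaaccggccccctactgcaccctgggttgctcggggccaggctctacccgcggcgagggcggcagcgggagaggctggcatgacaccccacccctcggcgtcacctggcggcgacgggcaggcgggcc
Elovl7 intron, chr13:108231019-108231218: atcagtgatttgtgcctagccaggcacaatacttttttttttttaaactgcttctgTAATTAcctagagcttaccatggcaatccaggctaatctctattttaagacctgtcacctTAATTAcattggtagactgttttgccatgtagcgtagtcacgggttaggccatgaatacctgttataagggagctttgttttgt
Elovl5 intron, chr9:77939650-77939849: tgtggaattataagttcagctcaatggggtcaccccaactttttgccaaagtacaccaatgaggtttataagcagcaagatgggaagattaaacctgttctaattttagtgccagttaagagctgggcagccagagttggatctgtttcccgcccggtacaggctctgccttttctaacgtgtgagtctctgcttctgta
Elovl2 intron, chr13:41216348-41216547: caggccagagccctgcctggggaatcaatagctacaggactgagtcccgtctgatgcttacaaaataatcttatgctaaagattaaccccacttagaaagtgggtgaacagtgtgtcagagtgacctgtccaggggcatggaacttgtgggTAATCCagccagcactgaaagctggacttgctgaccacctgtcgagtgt
Elovl4 intron, first region, chr9:83785624-83785823: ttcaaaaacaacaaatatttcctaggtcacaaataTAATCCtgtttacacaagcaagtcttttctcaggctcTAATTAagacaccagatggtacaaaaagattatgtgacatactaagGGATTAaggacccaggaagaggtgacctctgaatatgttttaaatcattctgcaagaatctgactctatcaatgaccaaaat
Elovl4 intron, second region, chr9:83784608-83784807: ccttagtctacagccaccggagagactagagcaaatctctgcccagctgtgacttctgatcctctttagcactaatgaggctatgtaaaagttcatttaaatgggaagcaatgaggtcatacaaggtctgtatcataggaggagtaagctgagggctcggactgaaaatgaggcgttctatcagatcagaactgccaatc
Elovl4, intergenic region, chr9:83761410-83761609: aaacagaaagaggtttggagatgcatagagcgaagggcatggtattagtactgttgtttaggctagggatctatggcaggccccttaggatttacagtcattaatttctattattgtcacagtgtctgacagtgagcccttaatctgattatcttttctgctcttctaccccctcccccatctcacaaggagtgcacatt
Elovl5, upstream region, chr9:77910613-77910812: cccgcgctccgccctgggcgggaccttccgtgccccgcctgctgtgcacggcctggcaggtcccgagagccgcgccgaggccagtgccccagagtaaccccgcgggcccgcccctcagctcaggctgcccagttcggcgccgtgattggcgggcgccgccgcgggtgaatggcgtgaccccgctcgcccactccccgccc
Acsl6 intron, chr11:54336302-54336501: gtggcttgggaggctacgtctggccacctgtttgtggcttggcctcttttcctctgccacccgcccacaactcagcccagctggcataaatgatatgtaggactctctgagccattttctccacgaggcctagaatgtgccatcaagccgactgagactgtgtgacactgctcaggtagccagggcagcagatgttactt

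TAATCC stood in 1 copy in the Elovl2 region and, over both strands, in 2 copies in the first Elovl4 region, which also held TAATTA. The Elovl7 intron held TAATTA, and none of the other sequences shown held either motif. Among all 110715 regions of 200 bp, 21.8% held TAATCC and 5.2% held TAATTA. Of the 64 regions assigned to a member, 11 (17.2%) and 5 (7.81%) did. RefSeq promoter windows, from 250 bases before a start to 50 after it, were at hand for 9 members, all but Fads1. None of their 12 windows held either motif, against 7.06% of 32851 windows for TAATCC and 5.29% for TAATTA. A match is a run of letters and not a shown site, and its absence says nothing about a factor.

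**Figure D1:**
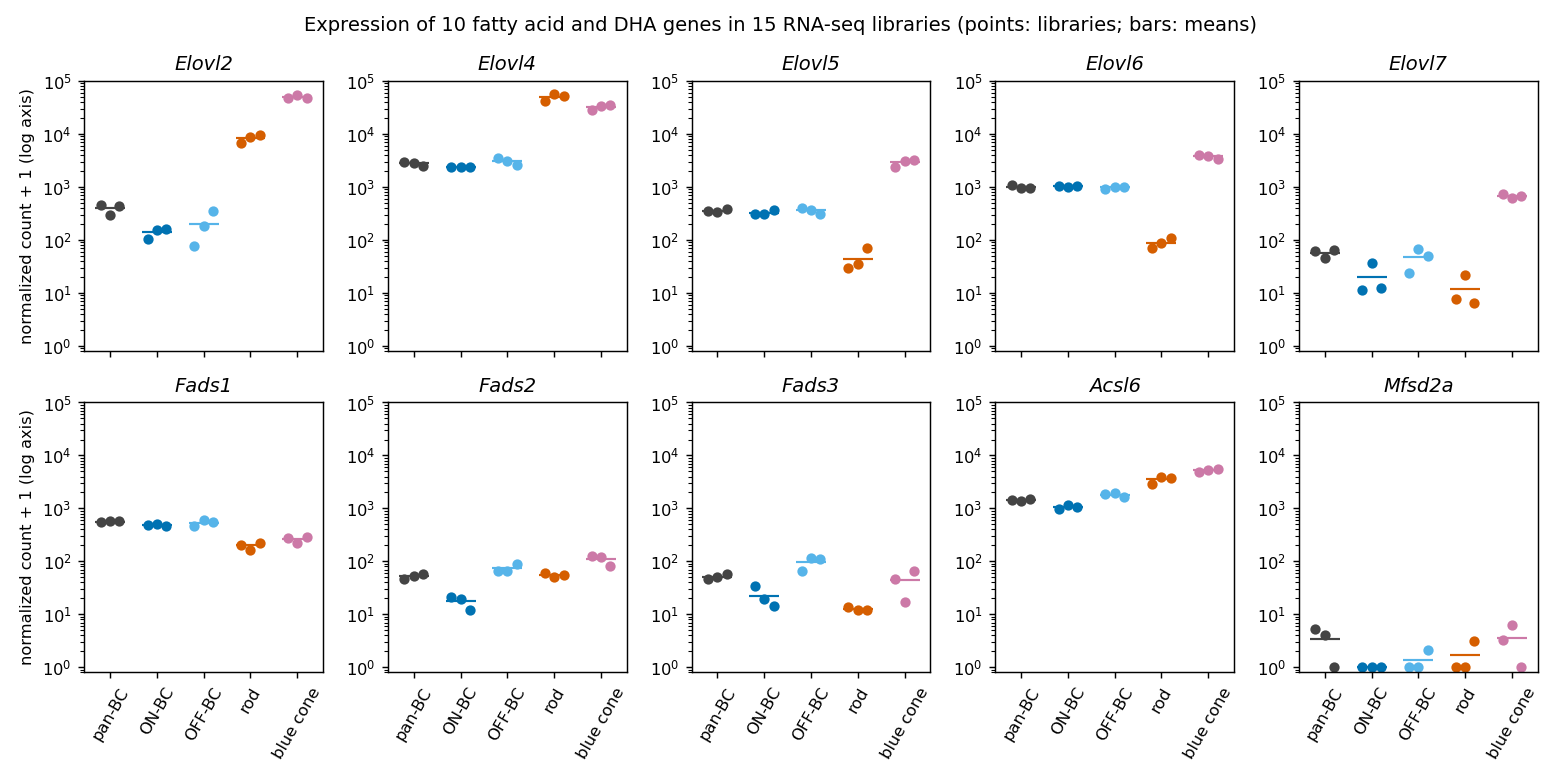
Normalized count plus 1 (log axis) of each of the 10 genes in the 15 RNA-seq libraries, by population, with points for libraries and bars for means. Elovl2 and Elovl4 are high in rods and blue cones, Elovl5, Elovl6 and Elovl7 are on average lowest in rods and highest in blue cones, and Mfsd2a stays between 0 and 5.31 normalized counts.

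Pan-BC and rods differed at most members, and in both directions. Of the 9 tested, 8 were called between pan-BC and rods, where 43.6% of all tested genes were called. In pan-BC 5 were higher (Elovl5, Elovl6, Elovl7, Fads1 and Fads3; 27.8% of all genes were higher) and 3 were lower (Elovl2, Elovl4 and Acsl6; 15.8% of all genes were lower). With ON-BC in place of pan-BC, chosen after seeing the data, 2 members were higher and 4 lower, beside 3672 and 2183 of the 14024 genes. With OFF-BC 4 were higher and 2 lower, beside 3799 and 2171 genes. For pan-BC itself, DESeq2 called 4 members higher and 2 lower, beside 3755 and 2100 of 14011 genes. With 10 added before the logarithm, 3 were higher and 3 lower in pan-BC, beside 3359 and 2104 of the 14024 genes. With libraries scaled to their totals alone, 4497 genes were higher and 1578 lower in pan-BC than in rods, against 3901 and 2211. Against blue cones 6 members were called, at a background of 36.3% of genes, and all 6 were lower in pan-BC, namely Elovl2, Elovl4, Elovl5, Elovl6, Elovl7 and Acsl6. Fads1 (1.11) and Fads3 (0.44) had log2 fold changes above 0 there and were not called. Among all genes 13.7% were lower and 22.7% higher in pan-BC. The median log2 fold change of the 9 members was 1.51 against rods and -1.91 against blue cones, beside 0.21 and 0.16 over all tested genes. Both comparisons use the same pan-BC libraries.

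**Figure D2:**
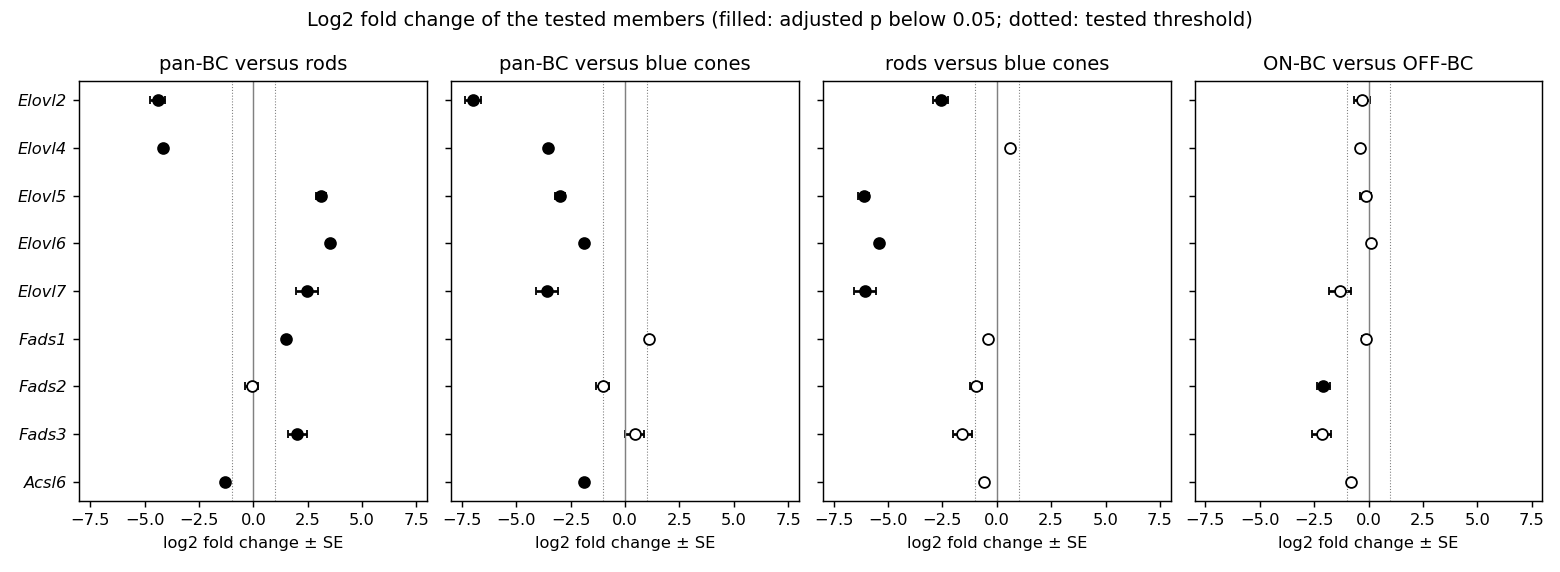
Log2 fold change with its standard error for the 9 tested members in 4 comparisons, positive where the population named first is higher. Filled points passed the test, and dotted lines mark the tested threshold of 1. Elovl5, Elovl6 and Elovl7 lie to the right against rods and to the left against blue cones.

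Between rods and blue cones, 4 members, namely Elovl2, Elovl5, Elovl6 and Elovl7, were called, where 15.9% of all genes were, and all 4 were lower in rods, as were 11.3% of all genes, while 4.63% were higher. Between ON-BC and OFF-BC, Fads2 was the only member called, at a background of 6.55%. It was lower in ON-BC, as were 3.60% of all genes, while 2.95% were higher.

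Elovl4 and Elovl2 are the elongases of the last lengthening steps. Elovl4, which makes chains longer than DHA, had 41594, 56805 and 51732 normalized counts in rods, against 28837, 34093 and 34671 in blue cones. In pan-BC it had 3001, 2828 and 2523, in ON-BC 2394, 2365 and 2330, and in OFF-BC 3542, 3077 and 2642. All photoreceptor libraries lay above all bipolar libraries, and all rod libraries above all blue cone libraries. Pan-BC fell below rods with a log2 fold change of -4.16 (SE 0.14, limma adjusted p = 1.78e-12), and the value was -3.55 (SE 0.14, adjusted p = 8.54e-11) against blue cones. Between rods and blue cones the difference of 0.61 (SE 0.14, adjusted p = 1) did not pass the threshold.

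Elovl2, whose products are precursors of DHA, had its highest level in blue cones, with 48843, 54022 and 47285 normalized counts. It had 6867, 8679 and 9708 in rods, and 454, 301 and 440.5 in pan-BC. In ON-BC it had 103, 152 and 160.1, and in OFF-BC 74.9, 181 and 349, the last in the library rich in cone markers. The order blue cones, rods, pan-BC held without overlap, while OFF-BC overlapped with ON-BC and with pan-BC. For pan-BC, the log2 fold change reached -6.99 (SE 0.36, limma adjusted p = 3.55e-10) against blue cones, the largest of any member in these 4 comparisons, and -4.41 (SE 0.36, adjusted p = 1.79e-07) against rods. Rods were below blue cones by -2.58 (SE 0.36, adjusted p = 0.00207). With ON-BC in place of pan-BC, chosen after seeing the data, the values were -8.51 against blue cones and -5.93 against rods, and with OFF-BC they were -8.21 and -5.62. The part of photoreceptor RNA in the pan-BC level of Elovl2 was not tested.

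Elovl5 acts earlier, on the shorter chains of the same pathway. It had 28.1, 33.8 and 68.1 normalized counts in rods, 352, 342 and 378 in pan-BC, and 2399, 3062 and 3251.5 in blue cones. These 3 populations did not overlap. ON-BC (311, 304 and 365) and OFF-BC (405, 363 and 310.1) overlapped with each other and with pan-BC. Relative to photoreceptors, pan-BC showed log2 fold changes of 3.12 (SE 0.24, limma adjusted p = 3.34e-07) against rods and -3.01 (SE 0.24, adjusted p = 1.04e-06) against blue cones, and that of rods against blue cones was -6.13 (SE 0.24, adjusted p = 1.37e-11).

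Elovl6 and Elovl7 lengthen mainly saturated and monounsaturated chains, and Elovl6 takes up the product of fatty acid synthase. Elovl6 had 69.9, 88.1 and 106 normalized counts in rods, 1099, 963 and 938.5 in pan-BC and 3953, 3920.1 and 3417 in blue cones. The order was that of Elovl5, again without overlap, and ON-BC (1062, 1014 and 1061) and OFF-BC (931, 1009 and 992) crossed the range of pan-BC. For pan-BC the log2 fold change was 3.51 (SE 0.13, limma adjusted p = 1.57e-11) against rods and -1.91 (SE 0.13, adjusted p = 8.57e-06) against blue cones. Rods were lower than blue cones by -5.42 (SE 0.13, adjusted p = 3.13e-14).

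Elovl7 was scarce outside blue cones, where it had 732, 620.0 and 679 normalized counts. It had 59.6, 45.4 and 63.6 in pan-BC and 6.79, 20.5 and 5.40 in rods. In ON-BC it had 10.3, 36.25 and 11.3, and in OFF-BC 22.4, 66.1 and 49.7. The ON-BC range crossed that of rods, and the OFF-BC range crossed that of pan-BC. For pan-BC, log2 fold changes were -3.58 (SE 0.50, limma adjusted p = 0.000226) against blue cones and 2.47 (SE 0.50, adjusted p = 0.0125) against rods. The call against rods was lost without rod library 3 (adjusted p = 0.0623), with ON-BC in place of pan-BC (log2 fold change 0.76, adjusted p = 1) and with OFF-BC (2.07, adjusted p = 0.0569). It was also lost with no filter on low values (0.0503) and with 10 added before the logarithm (0.0573). Rods were lower than blue cones by -6.05 (SE 0.50, adjusted p = 2.96e-07).

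Because Elovl5 and Elovl7 are abundant in blue cones, the study's rule for carry-over bears on them. That rule sets aside a gene called higher in bipolar cells than in 1 photoreceptor type whose level in the other type exceeds that one over 16-fold while exceeding bipolar cells 4-fold or more. Applied after seeing the data, it removed Elovl5 and Elovl7 from the members that pan-BC had above rods and left 6 members called. With 1 added to each mean, the level of Elovl5 in blue cones was 65.5-fold that of rods and 8.11-fold that of pan-BC. For Elovl7 the ratios made in the same way were 57.0-fold and 11.85-fold. Elovl6 stayed, since its ratio to pan-BC was 3.76. With ON-BC in place of pan-BC, the log2 fold change of Elovl5 against rods was 2.99 (limma adjusted p = 7.62e-07). The part of photoreceptor RNA in the bipolar levels of these genes was not tested.

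**Figure D3:**
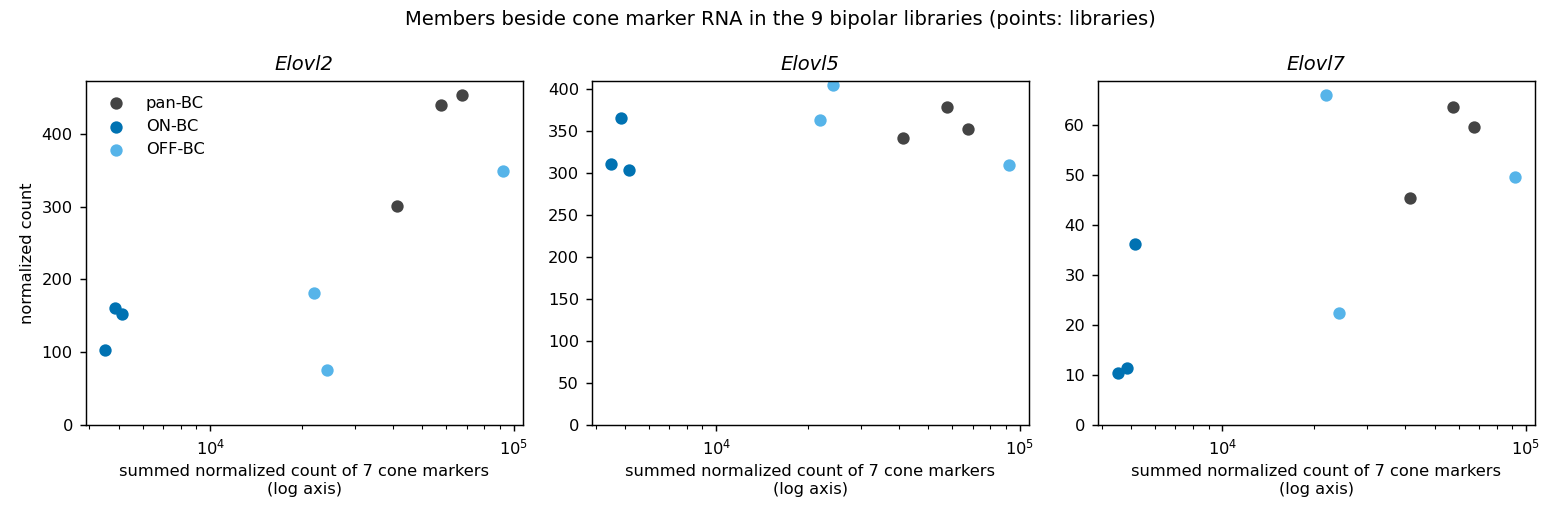
Normalized counts of Elovl2, Elovl5 and Elovl7 in the 9 bipolar libraries against the summed normalized count of 7 cone markers (log axis), with 1 point per library. Elovl5 stays between 304 and 405 while the cone marker sum runs from 4515 to 92072, and the ON-BC libraries, with the lowest cone sums, include the lowest values of Elovl7.

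Fads1, a desaturase that adds a double bond after the elongation by Elovl5, had 541, 579 and 573 normalized counts in pan-BC and 205, 166 and 225 in rods, with 275, 221 and 291 in blue cones. ON-BC had 476, 507 and 462 and OFF-BC 462, 589.9 and 542. All bipolar libraries lay above all photoreceptor libraries, and rods and blue cones overlapped. Against rods, pan-BC had a log2 fold change of 1.51 (SE 0.15, limma adjusted p = 0.00378), and of 1.11 (SE 0.15, adjusted p = 0.486) against blue cones. The second passed when libraries were scaled to their totals alone (1.39, adjusted p = 0.0495), and the first was lost with ON-BC in place of pan-BC (1.28, adjusted p = 0.0787).

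Fads2, the desaturase of the first step, had 44.7, 52.5 and 57.5 normalized counts in pan-BC and 60.2, 49.2 and 54.0 in rods, which overlapped. It had 124, 121 and 79.2 in blue cones. The difference of pan-BC from rods was -0.08 (SE 0.29, limma adjusted p = 1), with a sign that was not stable, and that from blue cones was -1.03 (SE 0.29, adjusted p = 0.879). With ON-BC in place of pan-BC both differences were called, at -1.67 from rods (adjusted p = 0.0386) and -2.62 from blue cones (adjusted p = 8.604e-05).

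Fads3, a relative of Fads1 and Fads2 known to act on the bases of sphingolipids, had 44.7, 49.4 and 56.3 normalized counts in pan-BC and 12.6, 11.3 and 10.8 in rods. Its blue cone libraries were spread widely, at 45.9, 15.9 and 65.9. Pan-BC was above rods by 2.02 (SE 0.44, limma adjusted p = 0.0408). This call was lost when any 1 library of either population was left out (adjusted p = 0.0583 to 0.0989), by DESeq2 (0.0551), with no filter (0.0985) and with 10 added before the logarithm (0.178). Its log2 fold change was 0.76 (adjusted p = 1) with ON-BC in place of pan-BC and 2.92 (adjusted p = 0.000811) with OFF-BC. Pan-BC and blue cones overlapped, with a difference of 0.44 (SE 0.44, adjusted p = 1).

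Fads2 and Fads3 were the members that separated ON-BC from OFF-BC most. Fads2 had 20.6, 18.6 and 11.3 normalized counts in ON-BC and 64.8, 66.1 and 88.3 in OFF-BC, so that the populations did not overlap. ON-BC against OFF-BC had a log2 fold change of -2.08 (SE 0.29, limma adjusted p = 0.0150). It was lost without OFF-BC library 3, the one rich in cone markers (-1.94, adjusted p = 0.0785), and without ON-BC library 3 (-1.83, adjusted p = 0.0935), with 10 added before the logarithm (0.0637) and with only these populations in the model (0.0675). Fads3 had 33.0, 18.6 and 13.3 in ON-BC and 65.9, 113 and 111.5 in OFF-BC, also without overlap. Its difference of -2.16 (SE 0.44, adjusted p = 0.120) did not pass by limma but passed by edgeR (-2.13, adjusted p = 0.0261). The OFF-BC libraries were sorted a second time and the ON-BC libraries were not. Marker sums of other cells also separated the populations without overlap. Cone markers summed to 4515 to 5140 in ON-BC and to 22006.5 to 92072 in OFF-BC. In the other direction, rod markers summed to 26928 to 31946 in ON-BC and 8297 to 25167 in OFF-BC. Those of the pigment epithelium summed to 45.15 to 74.3 and 11.0 to 20.1. The 8 amacrine and horizontal markers summed to 227 to 354 in ON-BC and 737 to 942 in OFF-BC, the 6 microglial ones to 50.6 to 52.9 and 86.1 to 207.5, and the 8 of Muller glia to 6527 to 7757 and 8065 to 12731. No gene of the amacrine and horizontal, microglial and Muller glia lists was at 0 in all libraries of either population. Of the amacrine and horizontal markers, 4 stayed below 20 in all ON-BC libraries and 4 in all OFF-BC libraries. Single genes did not all follow their sum. Kcnj10, of the Muller glia list, had 14.45, 10.8 and 9.23 in ON-BC and 6.71, 6.01 and 6.62 in OFF-BC. Aqp4, of the same list, had 29.9, 76.4 and 48.2 in ON-BC and 38.0, 9.61 and 13.2 in OFF-BC. The other genes of that list were not looked at singly. The part of RNA from other cells in the differences of Fads2 and Fads3 was not tested. The other 7 tested members had differences between -1.31 (Elovl7) and 0.10 (Elovl6), and the median over the 9 was -0.38, beside -0.02 over all genes.

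Acsl6, which activates DHA and so retains it in neurons, was present in all populations. Rods had 2906, 3954 and 3806 normalized counts, blue cones 4946, 5404 and 5575, and pan-BC 1454, 1404 and 1479. ON-BC had 962, 1143.5 and 1058 and OFF-BC 1853, 1969 and 1628. The populations ranked blue cones, rods, OFF-BC, pan-BC and ON-BC, with no overlap between neighbours in that order. Pan-BC had log2 fold changes of -1.87 (SE 0.12, limma adjusted p = 5.07e-06) against blue cones and -1.28 (SE 0.12, adjusted p = 0.0332) against rods. The call against rods was lost without any 1 of the 3 pan-BC libraries, without rod library 2 or 3 (adjusted p = 0.0516 to 0.146 over these 5), by DESeq2 (0.0604), with no filter (0.0605), with libraries scaled to their totals alone (-0.94, adjusted p = 1) and with OFF-BC in place of pan-BC (-0.96, adjusted p = 1). Rods and blue cones differed by -0.59 and ON-BC and OFF-BC by -0.78 (adjusted p = 1 for each), less than the tested threshold.

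Mfsd2a carries DHA bound to lysophosphatidylcholine and is known from the endothelium of the blood-retina and blood-brain barriers and from the pigment epithelium. Its reads numbered 4, 3 and 0 in pan-BC, 0 in each ON-BC library, and 0, 0 and 1 in OFF-BC. Rods had 0, 0 and 2 reads, and blue cones 3, 7 and 0. No order can be read from such counts, since a count of 0 still allows up to 3 reads by counting error alone. The markers of both tissues were low as well, at a sum of 23.2 to 227 normalized counts over 7 endothelial genes and of 11.0 to 189 over 6 genes of the pigment epithelium. The endothelial marker Cldn5 was at 0 in all ON-BC libraries, and Rpe65 was at 0 in all OFF-BC libraries.

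Per kilobase of exon, which allows genes to be set side by side, Elovl4 had the highest level of the members in rods, at 16386 ± 2536 (SD, n = 3) normalized counts per kb. Elovl2 (2124 ± 363) and Acsl6 (1157 ± 184.5) followed there, and the other 6 tested members lay between 2.003 and 57.4. In blue cones the order changed, with Elovl2 at 12629 ± 890.0 and Elovl4 at 10653 ± 1052.5, whose libraries did not overlap. Acsl6 (1727 ± 106), Elovl5 (1044 ± 161) and Elovl6 (632 ± 50.5) came next, before Elovl7 (124 ± 10.3) and the desaturases (13.0 to 75.8). In pan-BC the levels lay closer together, with Elovl4 at 911.5 ± 79.2 and Acsl6 at 470.3 ± 12.4. Elovl6 (168 ± 14.5), Fads1 (163 ± 5.82), Elovl5 (128.5 ± 6.70) and Elovl2 (100.5 ± 21.4) came behind. Elovl4, Acsl6 and Elovl2 were below both photoreceptor types there, while Elovl6, Fads1 and Elovl5 were above rods. Elovl6 and Fads1 lay within their spread, as did Fads2 (17.7 ± 2.22) and Fads3 (15.3 ± 1.79).

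Open chromatin was measured over 110715 regions of 200 bp, each given to the RefSeq gene with the nearest start, and 64 regions were nearest to a member. They numbered 14 for Elovl4, 12 for Elovl5, 9 for Elovl7, 8 for Elovl2, 7 for Acsl6, 6 for Fads3, 3 each for Fads1 and Fads2, and 2 for Mfsd2a, and none was nearest to Elovl6. All 64 passed the filter, as did 108448 of all regions. Proximity is no proof that a region acts on the gene.

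Between pan-BC and rods 29 of the 64 regions were called, at a background of 51.6%. Of these, 16 were more open in pan-BC (background 40.3%) and 13 less (11.2%). Against blue cones 19 were called (35.9%), with 10 more open (28.8%) and 9 less open (7.13%) in pan-BC. That split changed to 5 and 12 with TMM scaling, to 7 and 10 with libraries scaled to their totals alone, to 10 and 16 by edgeR and to 2 and 7 without pan-BC library 2. Between rods and blue cones 11 were called (10%), all less open in rods (8.56%) and 0 more open (1.46%). Between ON-BC and OFF-BC 2 were called (7.39%), 1 in each direction (4.58% more open and 2.80% less open in ON-BC). Over all regions the 4972 more open and 3038 less open in ON-BC became 3712 and 3482 with TMM scaling and 3680 and 4056 with library totals alone. The median log2 fold change of the 64 was 0.14 against rods, -0.32 against blue cones, -0.19 for rods against blue cones and -0.22 for ON-BC against OFF-BC. Over all regions these medians were 1.16, 0.54, -0.20 and 0.15.

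By gene, the regions of Elovl5 and Elovl7 that were called against rods were all more open in pan-BC. Of the 12 regions of Elovl5, 8 were more open in pan-BC than in rods and 0 less open, and of the 9 of Elovl7, 3 were more open and 0 less. Among all regions 40.3% were more open and 11.2% less, and the counts at Elovl7 do not stand out from these shares. An uncalled region of Elovl7 at 29.0 kb had a log2 fold change of -0.41. At Elovl4, 5 of 14 were less open and 1 more open in pan-BC, and at Elovl2, 3 of 8 were less open and 1 more. The 11 regions less open in rods than in blue cones were 6 at Elovl5, 4 at Elovl7 and 1 at Elovl4. When only the rod and blue cone libraries were fitted, 0 of the 64 regions passed by limma (18 had an unadjusted p below 0.05), so these 11 calls rest on the spread shared with the other populations. By edgeR on the recovered reads 20 were called, of which 6 were more open and 14 less open in rods, and by DESeq2 6, all less open. Without blue cone library 2, 1 of 8 was more open in rods.

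The Elovl5 promoter region (chr9:77917220-77917419, 46 bp before the start at its centre, over the first exon's non-coding part) had 20.25 and 7.45 normalized counts in rods. Pan-BC had 278 and 341, ON-BC 294 and 291, OFF-BC 309.8 and 238.5, blue cones 177 and 197, and green cones 157 and 148. Rods alone were low. Pan-BC exceeded rods by a log2 fold change of 4.53 (SE 0.30, limma adjusted p = 2.79e-08), that of rods against blue cones -3.81 (SE 0.30, adjusted p = 1.96e-06), and pan-BC and blue cones differed by 0.71 (adjusted p = 1). The intron region of Elovl5 at 22.4 kb (chr9:77939650-77939849) had 0 and 0.678 in rods and 39.2 and 46.8 in pan-BC (adjusted p = 1.16e-05), while ON-BC had 71.7 in each library, OFF-BC 43.1 and 26.3, blue cones 15.5 and 5.78, and green cones 7.68 and 2.82.

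The Elovl7 promoter region (chr13:108214263-108214462, likewise over the start) was also low in rods alone, at 45.2 and 42.7 normalized counts. Pan-BC had 214 and 375, blue cones 407 and 443, and green cones 352 and 431. The difference on the log2 scale was 2.66 (SE 0.22, limma adjusted p = 4.12e-06) for pan-BC against rods and -3.24 (SE 0.22, adjusted p = 8.79e-07) for rods against blue cones, while pan-BC and blue cones differed by -0.58 (adjusted p = 1). In the Elovl7 intron at 16.7 kb (chr13:108231019-108231218), which holds TAATTA, the libraries of these populations did not overlap. It had 4.67 and 5.42 in rods, 33.6 and 37.6 in pan-BC and 146 and 144 in blue cones, with log2 fold changes of pan-BC of 2.60 against rods (adjusted p = 0.000235) and -1.998 against blue cones (adjusted p = 0.0119). The second was lost without pan-BC library 1 or without either blue cone library (adjusted p up to 0.05742).

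Regions more open in rods than in pan-BC were called near Elovl2, Elovl4, Acsl6 and Fads3, among others. The Elovl2 region at 3.7 kb (chr13:41216348-41216547), the one with TAATCC, was open in rods (241 and 249 normalized counts), blue cones (250 and 273) and green cones (179 and 141). It had 20 and 22.2 in pan-BC, 10.45 and 14.6 in ON-BC and 51.2 and 27.3 in OFF-BC. Pan-BC had log2 fold changes of -3.48 (SE 0.30, limma adjusted p = 1.46e-06) against rods and -3.57 (SE 0.30, adjusted p = 4.48e-06) against blue cones, and rods and blue cones differed by -0.09. The RNA of Elovl2 did differ between those 2, as given above.

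The first Elovl4 region (chr9:83785624-83785823, 20.6 kb) had 157 and 123 normalized counts in the rod libraries, while blue cones had 120.4 and 70.1 and pan-BC 16.8 and 21.7. Pan-BC was lower by -2.80 against rods (SE 0.41, limma adjusted p = 0.000594) and by -2.21 against blue cones (SE 0.41, adjusted p = 0.0145), the second lost without blue cone library 1 (adjusted p = 0.155) or pan-BC library 1. The second Elovl4 region (chr9:83784608-83784807, 21.6 kb) had 203 and 208 in blue cones, 143 and 151 in green cones, 99.7 and 81.8 in OFF-BC, 31.2 and 41.6 in pan-BC, 27.3 and 43.4 in rods and 8.96 and 16.1 in ON-BC. In rods, where Elovl4 RNA was highest, it differed from pan-BC by 0.07 (pan-BC minus rods, adjusted p = 1). It was lower in ON-BC than in OFF-BC by -2.81 (SE 0.32, adjusted p = 0.00117). The promoter regions of Elovl2 and Elovl4 were not called in either comparison of pan-BC with photoreceptors.

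An intergenic region 44.8 kb from the start of Elovl4 (chr9:83761410-83761609) was widest open in rods (416 and 389 normalized counts), before blue cones (225 and 215) and green cones (195 and 203). It had 49.6 and 40.5 in pan-BC, 29.9 and 35.1 in ON-BC and 32.3 and 50.6 in OFF-BC, so that all photoreceptor libraries lay above all bipolar ones. Pan-BC stood at -3.14 on the log2 scale relative to rods (SE 0.24, limma adjusted p = 7.35e-07) and at -2.27 relative to blue cones (SE 0.24, adjusted p = 0.000283), and rods and blue cones differed by 0.87 (adjusted p = 1). An Acsl6 intron region at 1.4 kb (chr11:54305484-54305683) was lowest in bipolar cells, with 72.01 and 64.4 in pan-BC, while rods had 265 and 290 and blue cones 193 and 210. Pan-BC was lower by -2.01 against rods (SE 0.22, adjusted p = 0.000404) and by -1.55 against blue cones (adjusted p = 0.0328), the second lost without pan-BC library 2 or either blue cone library (adjusted p up to 0.1432), by DESeq2 and with 10 added before the logarithm. A non-coding exon stretch of Fads3 at 17.7 kb (chr19:10059148-10059347) was high in rods alone (135.5 and 134), with 33.7 and 33.97 in blue cones, 61.5 and 46.5 in green cones and 19.2 and 11.4 in pan-BC. Pan-BC was below rods by -3.10 (SE 0.42, adjusted p = 0.000214), while the RNA of Fads3 was higher in pan-BC.

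Other regions were more open in pan-BC than in rods. The Elovl5 upstream region, 6.7 kb before the start (chr9:77910613-77910812), was low in rods, at 99.7 and 104 normalized counts, while pan-BC had 464 and 530.3 and blue cones had 408 and 399.6. Pan-BC exceeded rods by 2.28 on the log2 scale (SE 0.16, limma adjusted p = 1.53e-06) and differed from blue cones by 0.30 (adjusted p = 1). The Acsl6 intron region at 21.5 kb from the nearest start site of the gene (chr11:54336302-54336501) reached 68.8 and 79.25 in pan-BC. Rods had 0 and 1.355 and blue cones 3.885 and 7.95. ON-BC had 13.4 and 41.0, OFF-BC 36.4 and 70.1, and green cones 11.5 and 7.04. Pan-BC was higher there than rods (adjusted p = 6.05e-06) and blue cones (adjusted p = 0.00261), whereas the RNA of Acsl6 was lower in pan-BC.

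**Figure D4:**
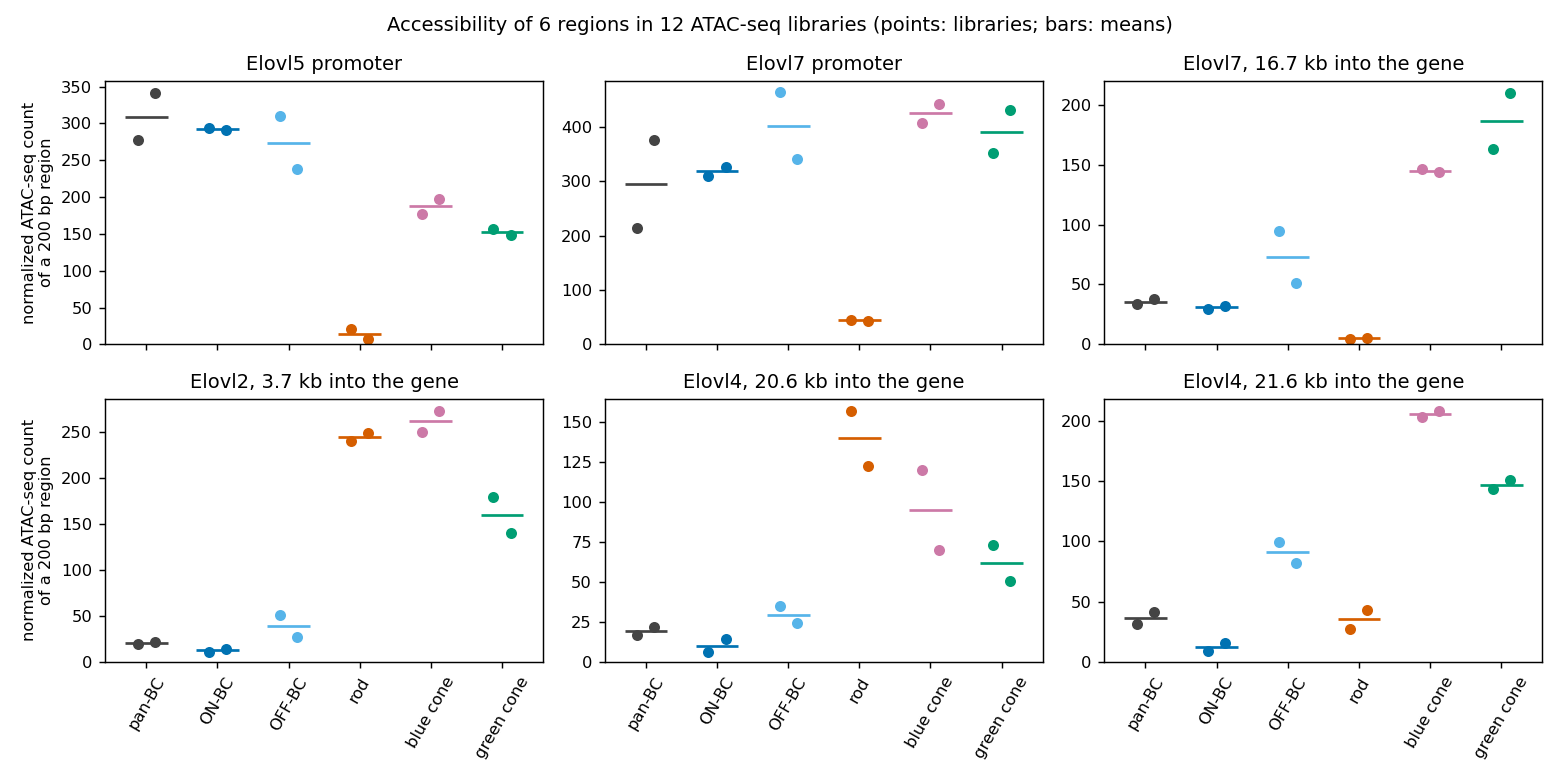
Normalized ATAC-seq counts of 6 regions of 200 bp near Elovl5, Elovl7, Elovl2 and Elovl4 in 12 libraries, with points for libraries and bars for means on axes that start at 0. Both promoters are low in rods alone, at 7.45 to 45.2, and the Elovl2 region is at least 140.8 in all 6 photoreceptor libraries and at most 51.2 in the bipolar ones.

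A further region called between ON-BC and OFF-BC touches a coding exon of Elovl4 (chr9:83788183-83788382, 18.0 kb). It had 47.8 and 26.35 normalized counts in ON-BC and 2.69 and 0 in OFF-BC (limma adjusted p = 0.00363). Pan-BC had 19.2 and 25.1, rods 15.6 and 29.1 and blue cones 15.5 and 18.1. The call was lost with only ON-BC and OFF-BC in the model. An intron region of Mfsd2a at 5.6 kb (chr4:122955490-122955689) had 103 and 111 in pan-BC, and its 23.4 and 21.7 in rods were lower, by a log2 difference of 2.20 (SE 0.30, adjusted p = 0.00124), although its RNA was at 0 to 4 reads in both. The Mfsd2a promoter region held 8.67 to 22.4 in all 12 libraries.

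Other genes of fatty acid metabolism, in 6 lists, were counted in the same comparisons, beside 27.8% of all genes higher and 15.8% lower in pan-BC against rods, and 22.7% and 13.7% against blue cones. Among the enzymes that complete each elongation cycle with an Elovl protein, 3 of 7 tested passed as higher in pan-BC and 0 as lower when set against rods, and 1 and 0 when set against blue cones. Hsd17b12, a reductase of the cycle, had a mean of 5747 in pan-BC and 1242 in rods (log2 fold change 2.25, limma adjusted p = 1.75e-05) and 4312 in blue cones (0.42, adjusted p = 1). Ptplad2, a dehydratase of the cycle, was listed at 0 in all rods and had a mean of 102 in pan-BC and 3.97 in blue cones (adjusted p = 4.06e-09 and 1.735e-06). The list's median was 1.22 against rods and 0.53 against blue cones, beside 0.21 and 0.16 over all genes.

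In the synthesis of saturated and monounsaturated fatty acids, 2 of 9 were higher and 1 lower in pan-BC, against rods and against blue cones alike in number. Scd3, a desaturase of saturated chains, had a mean of 496 in pan-BC and 53.6 in rods (log2 fold change 3.19, limma adjusted p = 5.11e-09). Acacb, a carboxylase that makes malonyl-CoA, had means of 56.7 in pan-BC and of 5.45 and 5.28 in rods and blue cones (3.18 and 3.545, adjusted p = 0.00402 and 0.00159). Of the other acyl-CoA synthetases, 1 of 9 was higher and 1 lower than in rods, and 3 were higher and 3 lower than in blue cones. Slc27a2 had 0.744 in pan-BC and 29.0 in blue cones, and Slc27a5, known from bile acid metabolism, 19.0 and 0.247.

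Of 11 tested genes of peroxisomal chain shortening, the last stage of DHA synthesis, pan-BC was higher at 3 and lower at 1 when set against rods, and higher at 1 and lower at 3 against blue cones. Abcd2, a transporter of very-long-chain acyl-CoA into peroxisomes, had a mean of 3813 in pan-BC and of 558 and 997 in rods and blue cones, giving log2 fold changes of 2.78 and 1.94 (limma adjusted p = 5.29e-09 and 1.97e-05). Acaa1b, a thiolase, had means of 6.11 in pan-BC and of 0.323 and 12.5 in rods and blue cones. The list's median was 0.03 against rods and -0.93 against blue cones.

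Genes of fatty acid uptake and binding went both ways, with 4 of 9 higher and 3 lower than in rods and 2 higher and 4 lower than in blue cones. Fabp12, a fatty acid binding protein, had a mean of 325 in pan-BC and of 10909 and 9463 in rods and blue cones (log2 fold change -5.13 and -4.935, limma adjusted p = 2.185e-08 and 7.52e-08). For Fabp4 the means were 4.17 in pan-BC and 161.5 and 124.0 in the photoreceptors (-5.09 and -4.67, adjusted p = 7.91e-06 and 3.77e-05). Acyltransferases and phospholipases, which place fatty acids in phospholipids, gave 4 of 13 higher and 5 lower than in rods, and 3 higher and 6 lower than in blue cones. Agpat4 had a mean of 740.3 in pan-BC and of 3.78 and 7.795 in the photoreceptors (7.34 and 6.99, adjusted p = 1.22e-08 and 4.865e-08), and Lpcat4 had 223, 2.39 and 26.1 (6.06 and 3.12, adjusted p = 5.08e-11 and 4.96e-06).

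**Figure D5:**
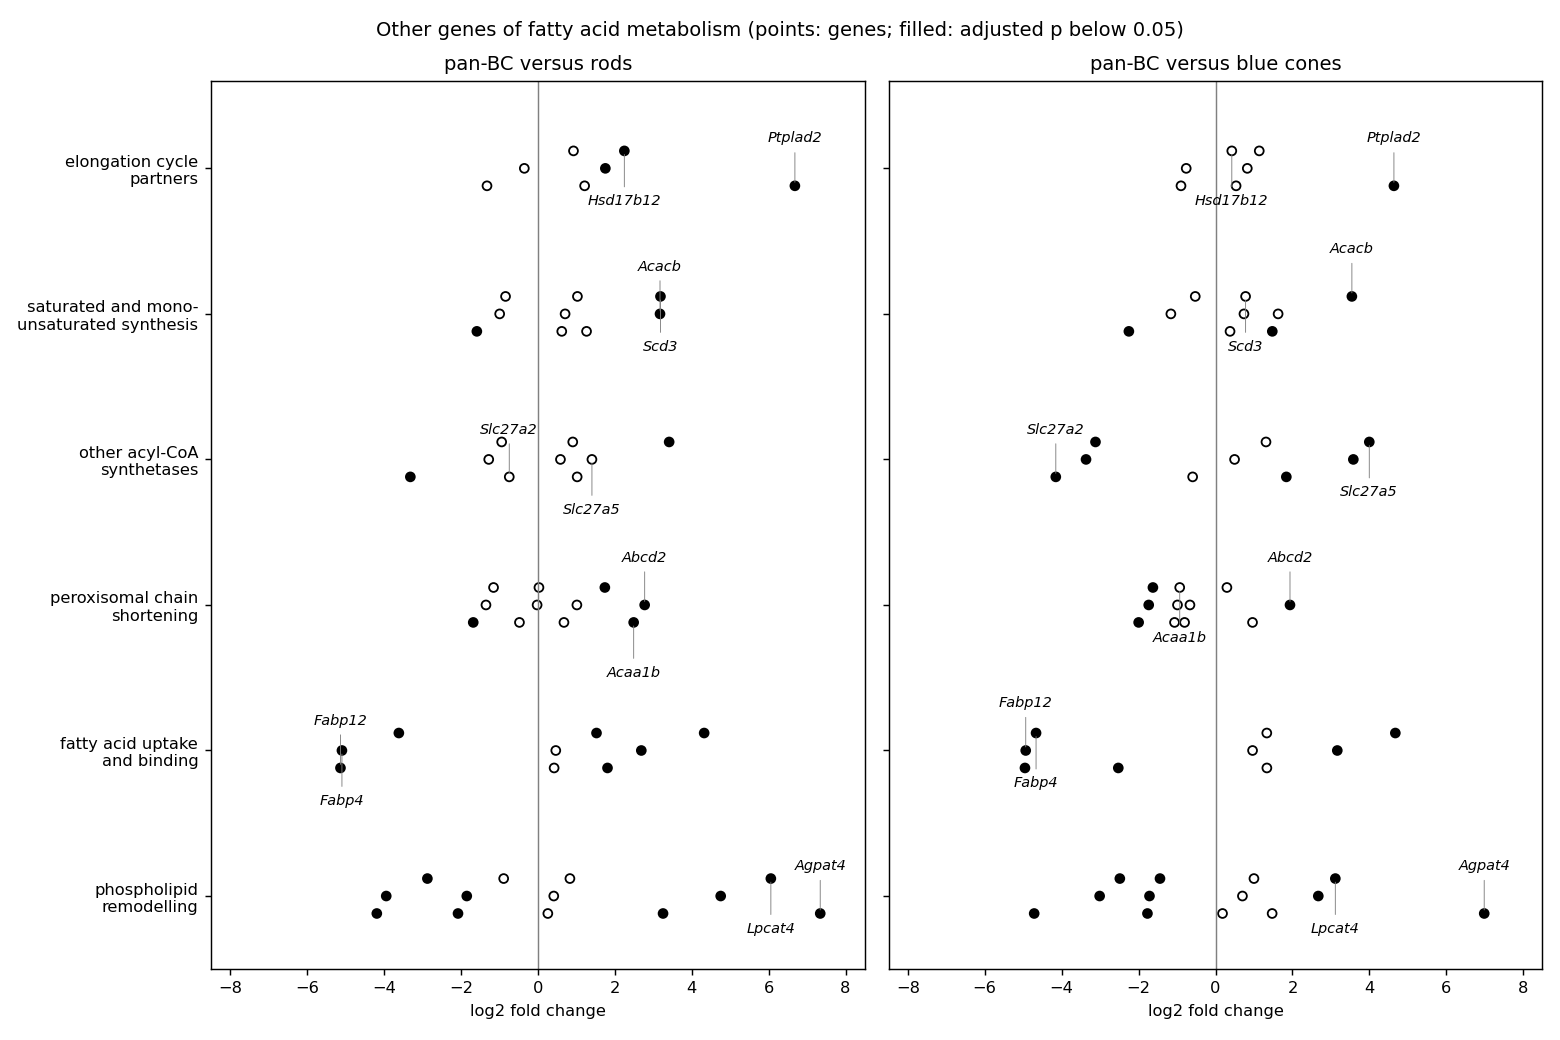
Log2 fold change of pan-BC against rods and against blue cones for the tested genes of 6 lists, with 1 point per gene, filled where the test was passed and named for 2 genes per list. Fabp12 and Fabp4 lie far to the left and Agpat4 and Lpcat4 far to the right in both panels.

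Genes whose levels ran most like a member's over the 15 libraries were sought among all tested genes. By Pearson's correlation of log2 values, the genes nearest to Elovl2 were Cdhr1 (0.989), a photoreceptor cadherin, Crxos and Cecr2, and those nearest to Acsl6 were Rbp3 (0.989), the retinoid carrier between photoreceptors and pigment epithelium, Slc46a3 and Sqle. Glmn (0.996), Zfp191 and Lyar stood nearest to Elovl4. For Elovl5 they were Ube2l6 (0.9845), Usp46 and Vamp4, for Elovl6 Six6 (0.996), Pygm and Negr1, and for Elovl7 Rab27b (0.964), Tmem176a and Abcb4. Kcnip3 (0.985), Prkcb and Mgat3 were nearest to Fads1. Fam102b (0.920), Dkkl1 and Kcnc2 were nearest to Fads3. The points share 5 populations, so these values mostly rank population means. Ranking by Spearman's correlation left 0 of the 3 genes for 8 members and 1 of the 3 for Fads2, whose nearest genes are not named.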

How the data were processed

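RNA-seq reads had been aligned by the authors to GRCm38 with STAR and counted on RefSeq genes with HTSeq, and ATAC-seq reads had been aligned with Bowtie2 and counted in 200 bp regions made from MACS2 peaks. The deposited signal values are counts that the authors divided by 1 size factor per library. All 230384 gene values and all 1212862 region values above 0 (100.0%) came out as whole reads, to within 0.01 of a read, once multiplied by a constant for their library, so whole reads were recovered for the filter and for the count tests. Genes and regions were kept by filterByExpr of edgeR (version 4.0.16). The tests used limma (version 3.58.1), as treat with a trended prior on log2(value + 1), a threshold of 1, all libraries of an assay in 1 model with 1 level per population, and Benjamini and Hochberg adjustment within a comparison. edgeR and DESeq2 (version 1.42.0) on the recovered reads, other scalings, filters and pseudocounts, fits without single libraries and ON-BC or OFF-BC in place of pan-BC were alternatives, and the script was tested on simulated data. Counting by strand is not given in the sources used here, and the bipolar library kit does not mark strand. RefSeq lists genes that overlap Elovl5, Elovl6, Elovl7, Fads1, Fads3 and Acsl6, of which 1 (Mir6993, at Fads1) has a row in the table. Levels per kb use the union of RefSeq exons. Genes of the Hacd family were matched through their RefSeq synonyms. The table lists 27 rows with names in the form of a date, none of them a member.

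Named genes were all members, the 2 genes of each list with the largest fold change among those called between pan-BC and photoreceptors, and the 3 genes most alike each member. Markers are given as sums, and Nrl, Opn1sw, Cldn5, Rpe65, Aqp4 and Kcnj10, chosen after their values were seen, singly. Members and lists were chosen with earlier results of these data known. The genes most like Fads2 in level are not reported here.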

Additional observations from a re-analysis of the deposited data

How the results depend on the processing

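Of the counts of calls, those that moved by over 1.5 times are given here. Tested against no change instead of a log2 fold change of 1, limma called 11156 genes between pan-BC and rods (6112 against the threshold), 10704 between pan-BC and blue cones (5092), 8068 between rods and blue cones (2231, with 9 members instead of 4) and 3783 between ON-BC and OFF-BC (919, with 3 members instead of 1). It then called 66171 regions between pan-BC and blue cones (38966, with 40 member regions instead of 19), 37557 between rods and blue cones (10871, with 29 instead of 11) and 26416 between ON-BC and OFF-BC (8010, with 15 instead of 2). With no filter on low values 5 members instead of 8 were called between pan-BC and rods, and without single libraries 5 (without rod library 3) to 7. For ON-BC and OFF-BC, edgeR called 2 members, and 10 added before the logarithm or only the populations compared gave 0 (2 at an unadjusted p below 0.05 in each), as did the fits without ON-BC library 3 or OFF-BC library 3 (0 to 1 over single libraries).

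For regions between pan-BC and blue cones, 10 added before the logarithm gave 11 member regions, OFF-BC in place of pan-BC gave 9 of them and 21458 regions in all, and fits without single libraries gave 7 (without blue cone library 1) to 11 member regions for the 4 libraries of both populations. Between rods and blue cones, edgeR gave 20 member regions and 19112 regions, DESeq2 6 member regions, 10 added before the logarithm 6 and 5208, and only the populations compared 0 and 0. Fits without single libraries gave 6 to 9 member regions and 7091 to 8358 regions, with the lowest values without blue cone library 1. Between ON-BC and OFF-BC, edgeR gave 6 member regions and 12927 regions, DESeq2 4791 regions, only the populations compared 1 and 3894, and fits without single libraries 4175 (without OFF-BC library 1) to 6118 regions, with 4986 without ON-BC library 2. Counting all regions within 50 kb of a member's start gave 100 regions instead of 64.

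Among single members, 3 small differences changed sign and none of these was called. Elovl2 between ON-BC and OFF-BC ran from -0.88 to 0.22 over single libraries, positive without OFF-BC library 3. Fads2 between pan-BC and rods was 0.26 with library totals alone, 0.41 with OFF-BC in place of pan-BC and 0.017 without pan-BC library 1 (-0.16 to 0.017 over single libraries). Fads3 between pan-BC and blue cones was -0.82 with ON-BC in place of pan-BC and -0.14 without blue cone library 2 (-0.14 to 0.85). Library totals alone moved the median of all genes by 0.35 against rods and 0.28 against blue cones, and other scalings moved that of regions by -0.31 to 0.14. The cause of these shifts was not tested. Fold changes of genes with few reads, such as Elovl7, Fads2 and Fads3, are limited by depth.

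Libraries of ON-BC and OFF-BC with the same number share an age in the labels, but their deviations were not correlated in all pairs, and the numbers were not taken as pairs. With the number as a replicate block, 8 members were called between pan-BC and rods, 6 between pan-BC and blue cones, 4 between rods and blue cones and 1 between ON-BC and OFF-BC (919 genes), and 28, 17, 11 and 2 member regions. The replicate block moved no count of calls by over 1.5 times.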

Other observations

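A region in an intron of Elovl7 at 12.3 kb (chr13:108226572-108226771) had 88.4 and 64.8 normalized ATAC-seq counts in green cones and 10.4 and 19.5 in blue cones, with 0.800 to 11.7 in the bipolar libraries and 0 to 1.56 in rods. Green cones formed a level of their own in the model and the difference between the cone types was not tested.

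Among genes outside the naming rule, 2 were picked after their values were seen for being high in photoreceptors, so their values are a description. Agpat3, an acyltransferase that favours polyunsaturated chains, had a mean of 41387 normalized counts in rods, 12677 in blue cones and 2258 in pan-BC, with log2 fold changes of pan-BC of -4.19 and -2.49. Adipor1, known to be needed for DHA uptake in photoreceptors, had 12021 in rods, 5687 in blue cones and 981 in pan-BC, with -3.61 and -2.53.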
